A study of Mus musculus with 7 samples.

Results

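The mechanistic target of rapamycin (mTOR) complexes, their direct regulators and the S6 kinase they activate were followed as 10 mRNAs in synaptoneurosomes of the mouse hippocampus. The genes are Mtor, Rptor, Rictor, Mlst8, Akt1s1, Deptor, Rheb, Tsc1, Tsc2 and Rps6kb1. They were chosen by name, not by a cut on their values, as the rows of the deposited gene table whose identifiers map to these symbols. Earlier results of these data were known when the choice was made. All 10 of 10 were found among 22248 genes, and all passed the filter on low counts.

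mTOR is a protein kinase that works in a pair of complexes. Complex 1, built around Raptor, promotes protein synthesis through S6 kinase and the 4E-binding proteins, and complex 2, built around Rictor, phosphorylates Akt. The small GTPase Rheb switches complex 1 on at the lysosome, and the TSC1-TSC2 complex keeps Rheb off until growth factor signals relieve it. In the hippocampus this pathway controls translation near synapses and is required for lasting forms of synaptic plasticity, and cannabinoid CB1 receptor signalling has been reported to act on it.

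Total RNA was sequenced from synaptoneurosomes, which are resealed nerve endings with attached postsynaptic parts obtained by fractionating tissue. All mice were wild-type C57Bl/6J females. The AM6545 group had 4 libraries (replicates B, D, E and F) from mice given AM6545, a CB1 receptor antagonist that enters the brain poorly, over a sub-chronic course. The vehicle group had 3 libraries (replicates B, D and E). The age of the mice, the dose, route and length of treatment, and whether a library holds 1 animal or a pool were not given in the sources used here. The p-values therefore measure the spread between these libraries, which may be partly technical.

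Library totals lay between 19174649 and 25894733 estimated counts, and 16580 to 16874 genes had a count. Hippocampal pyramidal and granule cell markers summed to 836 to 938 CPM (counts scaled to a common library size) in AM6545 libraries and 909 to 959 in vehicle libraries, against 7.48 to 12.4 and 7.85 to 9.59 for markers of other brain regions. The 8 neuron and synapse markers summed to 7845 to 7982 CPM with AM6545 and 7241 to 7426 with vehicle, without overlap. Without Snap25, the most abundant, the other 7 summed to 4014 to 4343 and 4022 to 4217 CPM, which overlapped, and 3 of the 8 had log2 fold changes below 0, including Dlg4 at -0.52 (edgeR unadjusted p = 0.0289). Of 7 microglial markers, 4 (C1qa, C1qb, C1qc and Tyrobp) were lower at an unadjusted p under 0.05, where 8.7% of all genes were, while Cx3cr1, P2ry12 and Csf1r had log2 fold changes of 0.04, 0.07 and -0.04. The microglial list summed to 679 to 714 against 689 to 937 CPM, and its median log2 fold change was -0.45, or -0.14 after the GC and length correction described next. The 6 oligodendrocyte markers summed to 17120 to 20220 CPM with AM6545 and 16810 to 23050 with vehicle, above the neuron and synapse list. The 6 astrocyte markers summed to 2249 to 2577 and 2285 to 2775 CPM. Of them 4 had log2 fold changes above 0, and Slc1a2 was at -0.45 (edgeR unadjusted p = 0.0098). The 4 choroid plexus markers summed to 410 to 1954 and 1559 to 2775 CPM, with overlap. All 4 were below 0, with a median of -0.50, or -0.36 after the correction. Vehicle replicate B stood apart with 9.83% mitochondrially encoded counts, where the others had 5.07% to 6.66%. The slope of log2 level on GC content, per 10 percentage points, was between -0.11 and -0.03 in the AM6545 libraries and between 0.04 and 0.12 in the vehicle libraries. A fit that removes each library's trend with GC content and length is therefore given beside the gene results. It was not run on transcripts. Because the slopes differ in sign between the groups, a technical trend and an effect of the treatment cannot be told apart. The fit may remove either, so a value after the correction is not the truer one. The part of the marker differences in the results below was not tested. In such bulk fractions, fewer particles from a cell type and less RNA per particle cannot be told apart.

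The 10 mRNAs differed widely in abundance. Levels of different genes are compared here only per length, as TPM (counts divided by transcript length and scaled to a common total) over all 7 libraries. Rheb was the highest with a mean of 259 TPM and a range of 208 to 301, which placed it at percentile 95.9 of the genes tested. Akt1s1 followed at 88.7 TPM (82.4 to 92.0) and Tsc2 at 27.5 TPM (22.6 to 33.2), and the ranges of these first 3 genes did not overlap. Rictor at 22.1 TPM (14.6 to 26.8), Mlst8 at 19.98 TPM (15.8 to 22.03) and Rps6kb1 at 19.01 TPM (15.7 to 23.0) formed a middle tier whose neighbours were not separated. The ranges of Tsc2 and Rictor also overlapped, with Tsc2 the higher in 6 of the 7 libraries. Mtor at 9.63 TPM (8.07 to 11.3), Rptor at 9.60 TPM (7.99 to 10.7) and Deptor at 9.05 TPM (6.75 to 11.01) lay together below them, and the range of Mtor lay wholly under that of Rps6kb1. Tsc1 was the lowest at 3.98 TPM (3.17 to 4.49), at percentile 27.1, and its range lay wholly under that of Deptor. With the length of each gene's longest transcript, Rheb was at 131 TPM and Deptor at 4.90 TPM. Rictor's place depends on the transcript model, because a short transcript with a retained intron took about as many of its counts as the coding one. By the longest transcript its mean was 13.6 TPM and it moved from rank 4 to rank 6.

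None of the 10 mRNAs passed an adjusted p of 0.05 between AM6545 and vehicle in edgeR's quasi-likelihood test, where 1 of 14654 genes did (0.00682%). Rptor had an unadjusted p under 0.05, 1 of the 10, where 14.6% of all genes did (5.86% higher and 8.7% lower, or 859 and 1275 genes, which became 1104 and 943 when libraries were scaled by total counts). The CPM of the groups did not overlap for Rptor and Akt1s1, both lower with AM6545. That is 2 of 10, against 13.8% of all genes (6.63% higher and 7.19% lower), so both counts were near the background. Log2 fold changes, AM6545 over vehicle, ran from -0.31 to 0.16 with a median of -0.09, where the median of all genes was 0.01. Of the 10, 6 were below 0, where 48.6% of all genes were. After the GC and length correction the median of the 10 was -0.02.

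**Figure D1:**
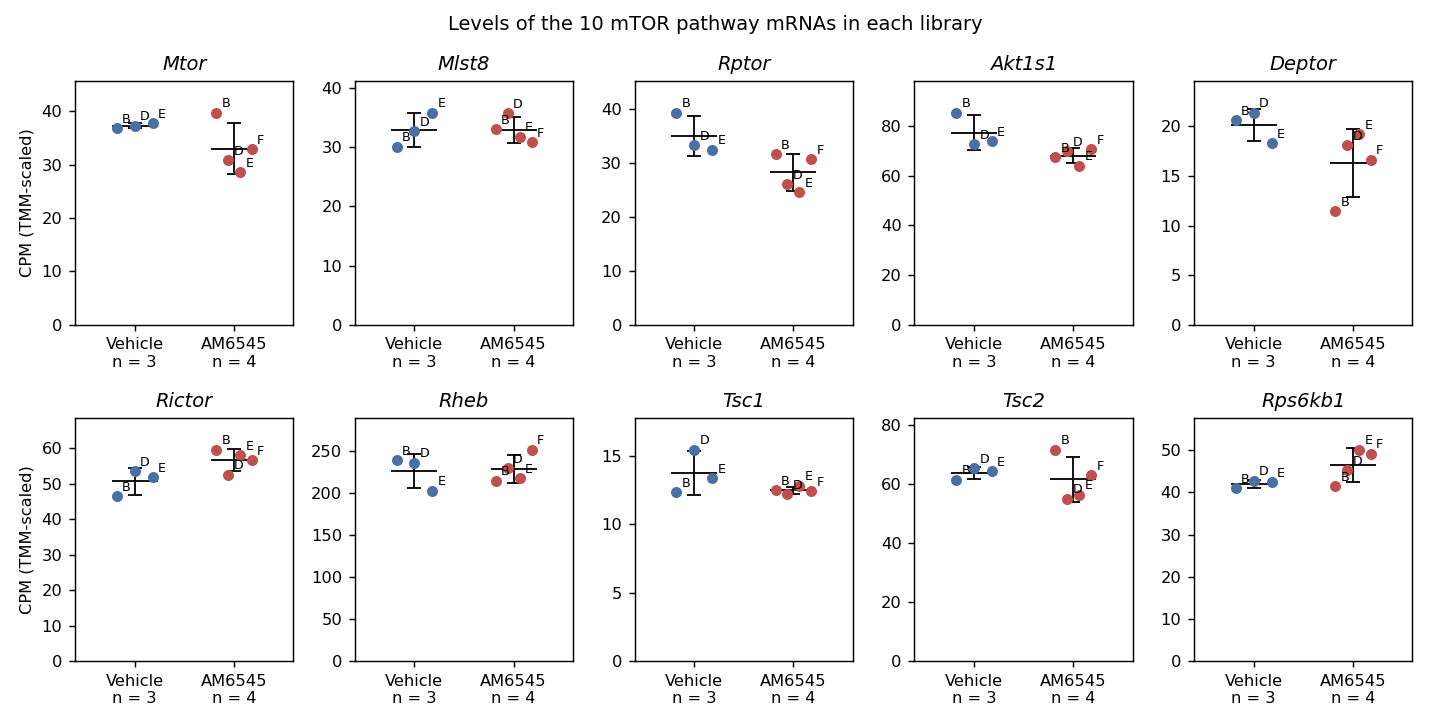
CPM of each of the 10 mRNAs (vertical axes, from 0) in the 3 vehicle libraries (blue) and 4 AM6545 libraries (red), with the replicate letter at each point and the mean ± SD in black. The groups are separate only for Rptor and Akt1s1, and the scales differ by gene.

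Mtor (ENSMUSG00000028991.16, chr4:148448611-148557683, plus strand; all gene coordinates are GRCm38 from GENCODE M21) encodes the kinase of both complexes. It had 39.75, 30.8, 28.65 and 32.9 CPM in AM6545 replicates B, D, E and F. In vehicle replicates B, D and E it had 36.8, 37.4 and 37.8 CPM. The vehicle libraries were within 1 CPM of each other, while AM6545 replicate B lay above all of them and the other AM6545 libraries lay below. The means were 33.0 ± 4.81 (SD, n = 4) and 37.35 ± 0.495 CPM (SD, n = 3), a log2 fold change of -0.18 (SE 0.12; 95% interval -0.43 to 0.08; edgeR adjusted p = 0.491). It was -0.28 without AM6545 replicate B (edgeR unadjusted p = 0.0232, adjusted p = 0.370), -0.11 without AM6545 replicate E and 0.01 after the GC and length correction.

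Mlst8 (ENSMUSG00000024142.16, chr17:24473551-24479078, minus strand) encodes mLST8, a WD40-repeat protein bound to the kinase domain in both complexes. Its CPM was 33.1, 35.8, 31.8 and 30.85 in AM6545 replicates B, D, E and F, and 30.1, 32.7 and 35.8 in vehicle replicates B, D and E. Both groups averaged 32.9 CPM, with SDs of 2.15 (n = 4) and 2.86 (n = 3). The log2 fold change was 0.00 with a 95% interval of -0.22 to 0.23, so changes beyond those bounds are outside the interval and smaller ones are not resolved. Of Mlst8's exon bases 22.5% are shared with Bricd5 on the opposite strand, a gene that had 0.34 to 1.41 CPM, and whether strand was used in counting is not given in the sources used here.

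The subunits particular to complex 1 are Raptor, which recruits its substrates, and PRAS40, an inhibitor encoded by Akt1s1. Rptor (ENSMUSG00000025583.16, chr11:119602905-119899576, plus strand) had 31.7, 26.1, 24.65 and 30.7 CPM in AM6545 replicates B, D, E and F. Its vehicle values were 39.4, 33.3 and 32.5 CPM. Every AM6545 library was below every vehicle library, with the closest pair AM6545 B and vehicle E. The means were 28.3 ± 3.45 (SD, n = 4) and 35.1 ± 3.74 CPM (SD, n = 3), a log2 fold change of -0.31 (SE 0.12; 95% interval -0.57 to -0.05). The edgeR p was 0.0233 unadjusted and 0.281 adjusted. After the GC and length correction the log2 fold change was -0.18 (SE 0.10; edgeR unadjusted p = 0.111, adjusted p = 0.756), and without vehicle replicate B it was -0.22.

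Akt1s1 (ENSMUSG00000011096.18, chr7:44848991-44855421, plus strand) had 67.5, 69.9, 63.97 and 70.7 CPM in AM6545 replicates B, D, E and F, and 85.35, 72.6 and 74.0 CPM in vehicle replicates B, D and E. The groups did not overlap, but AM6545 F and vehicle D were close, and vehicle B was the highest of all. The means were 68.0 ± 3.02 (SD, n = 4) and 77.3 ± 6.99 CPM (SD, n = 3), a log2 fold change of -0.19 (SE 0.10; 95% interval -0.40 to 0.03; edgeR adjusted p = 0.397). Akt1s1 has the most GC-rich mRNA of the 10, at 62.7%, and after the GC and length correction its sign turned, to 0.08 (edgeR unadjusted p = 0.269). Without vehicle replicate B it was -0.10.

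Deptor (ENSMUSG00000022419.17, chr15:55112317-55259271, plus strand) encodes an inhibitor that binds mTOR in both complexes. Its CPM was 11.5, 18.1, 19.2 and 16.6 in AM6545 replicates B, D, E and F, and 20.65, 21.4 and 18.3 in vehicle replicates B, D and E. All 4 AM6545 libraries were below the vehicle mean, although AM6545 E lay above vehicle E, and AM6545 B was far below the rest. The means were 16.35 ± 3.43 (SD, n = 4) and 20.1 ± 1.61 CPM (SD, n = 3), a log2 fold change of -0.30 (SE 0.16; 95% interval -0.64 to 0.04; edgeR adjusted p = 0.397). Without AM6545 replicate B it was -0.17. Deptor was the 1 gene of the 10 with an unadjusted p under 0.05 after the GC and length correction, where 6.74% of all genes had one. Its log2 fold change was then -0.39 (SE 0.15; edgeR unadjusted p = 0.0244, adjusted p = 0.729).

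Rictor (ENSMUSG00000050310.10, chr15:6708379-6800401, plus strand), the scaffold of complex 2, had 59.6, 52.5, 58.05 and 56.7 CPM in AM6545 replicates B, D, E and F. In vehicle replicates B, D and E it had 46.5, 53.6 and 51.8 CPM. All 4 AM6545 libraries were above the vehicle mean, and AM6545 D fell between vehicle E and vehicle D. The means were 56.7 ± 3.06 (SD, n = 4) and 50.6 ± 3.68 CPM (SD, n = 3), a log2 fold change of 0.16 (SE 0.10; 95% interval -0.05 to 0.38; edgeR adjusted p = 0.450). After the GC and length correction it was 0.09, with 0.07 by limma-voom with quality weights and 0.11 without vehicle replicate B.

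Upstream of complex 1, the activator Rheb (ENSMUSG00000028945.10, chr5:24802823-24842624, minus strand) had 214.0, 228.9, 217.4 and 251.2 CPM in AM6545 replicates B, D, E and F, and 238.3, 235.6 and 202.2 CPM in vehicle replicates B, D and E. AM6545 F was the highest library and vehicle E the lowest, and the others were mixed. The means were 227.9 ± 16.8 (SD, n = 4) and 225.4 ± 20.1 CPM (SD, n = 3), with a log2 fold change of 0.02 (SE 0.10; 95% interval -0.20 to 0.24; edgeR adjusted p = 0.953). Rheb was the most deeply counted of the 10, with up to 6547 counts in a library.

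Tsc1 (ENSMUSG00000026812.17, chr2:28641228-28691167, plus strand) encodes hamartin, which stabilises tuberin. It had 12.5, 12.2, 12.8 and 12.4 CPM in AM6545 replicates B, D, E and F, and 12.3, 15.4 and 13.4 CPM in vehicle replicates B, D and E. Vehicle D was the single high library, and vehicle B lay among the AM6545 values. The log2 fold change was -0.14 (SE 0.12; 95% interval -0.39 to 0.11; edgeR adjusted p = 0.578), and it was -0.04 without vehicle replicate D and -0.21 without vehicle replicate B. By limma-voom with quality weights it was -0.26 (limma-voom unadjusted p = 0.0160, adjusted p = 0.128). Tsc1 was also the least deeply counted, with 247 to 383 counts per library.

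Tsc2 (ENSMUSG00000002496.11, chr17:24595816-24632630, minus strand) encodes tuberin, the subunit that makes Rheb hydrolyse its GTP. It had 71.7, 55.1, 56.45 and 63.05 CPM in AM6545 replicates B, D, E and F, and 61.6, 65.4 and 64.3 CPM in vehicle replicates B, D and E. The vehicle values sat inside the range of the AM6545 values. The means were 61.6 ± 7.61 (SD, n = 4) and 63.8 ± 1.996 CPM (SD, n = 3), a log2 fold change of -0.05 (SE 0.11; 95% interval -0.29 to 0.19; edgeR adjusted p = 0.846). It was -0.13 without AM6545 replicate B, -0.00071 without AM6545 replicate D, -0.01 without AM6545 replicate E and -0.03 without vehicle replicate D.

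Downstream, Rps6kb1 (ENSMUSG00000020516.16, chr11:86498871-86544805, minus strand) encodes S6 kinase 1, which complex 1 phosphorylates. It had 41.4, 45.2, 50.1 and 49.1 CPM in AM6545 replicates B, D, E and F, and 40.95, 42.8 and 42.3 CPM in vehicle replicates B, D and E. The AM6545 libraries D, E and F were above all vehicle libraries, and AM6545 B lay among them. The means were 46.45 ± 3.97 (SD, n = 4) and 42.0 ± 0.951 CPM (SD, n = 3), a log2 fold change of 0.14 (SE 0.10; 95% interval -0.07 to 0.36; edgeR adjusted p = 0.507). Rps6kb1 has the lowest GC content of the 10, at 39.7%, and after the GC and length correction its log2 fold change was -0.02.

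**Figure D2:**
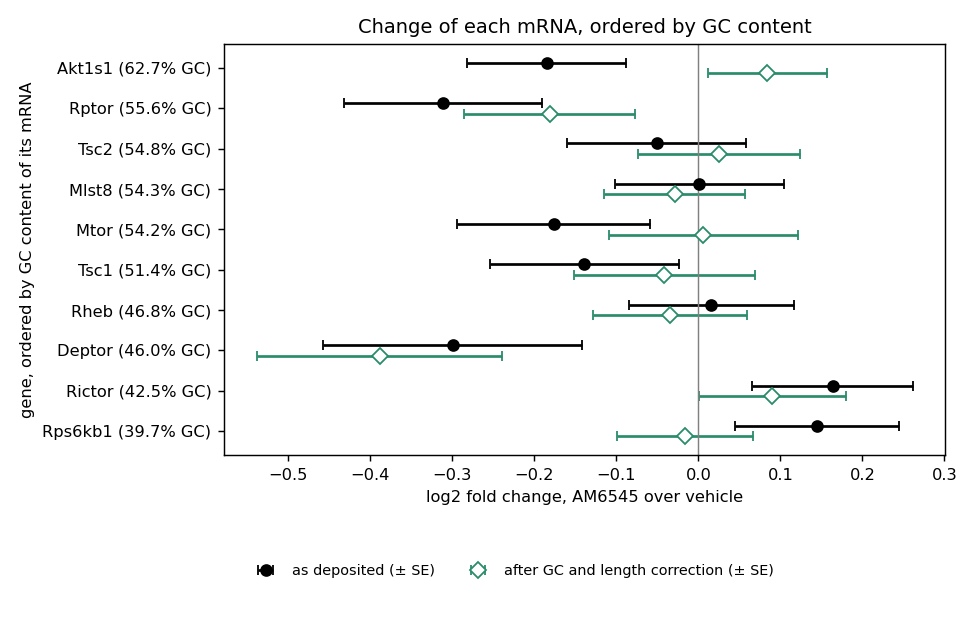
Log2 fold change, AM6545 over vehicle (horizontal axis), of each of the 10 mRNAs in order of GC content, as deposited (black circles) and after the GC and length correction (open diamonds), each ± SE. As deposited, the lowest value is that of Rptor at -0.31 and the highest that of Rictor at 0.16; after the correction Akt1s1 moves to 0.08 and Rps6kb1 to -0.02, while Deptor is at -0.39.

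The 10 mRNAs differ in base composition, which the choice of genes did not use. Stretches of coding sequence from 4 of them show the extremes, each the in-frame 60-base window whose GC content is nearest to that of the whole named transcript (GENCODE M21 transcripts, positions from the transcript's first base); G and C are in capitals.
Akt1s1-201, bases 415 to 474, 63.3% GC: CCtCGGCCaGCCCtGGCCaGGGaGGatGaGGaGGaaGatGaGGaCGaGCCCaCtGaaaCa
Rptor-201, bases 671 to 730, 56.7% GC: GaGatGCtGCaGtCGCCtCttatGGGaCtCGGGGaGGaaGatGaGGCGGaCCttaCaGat
Rictor-201, bases 114 to 173, 43.3% GC: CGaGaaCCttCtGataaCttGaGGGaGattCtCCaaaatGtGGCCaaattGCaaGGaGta
Rps6kb1-207, bases 286 to 345, 40.0% GC: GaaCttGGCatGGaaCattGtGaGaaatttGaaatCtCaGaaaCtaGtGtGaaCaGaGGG
Akt1s1 and Rptor, whose CPM was lower in all AM6545 libraries, are the most GC-rich of the 10, and Rictor and Rps6kb1, which have the highest log2 fold changes, are the poorest. The other members did not keep this order. By rising GC content they were Deptor (46.0%, log2 fold change -0.30), Rheb (46.8%, 0.02) and Tsc1 (51.4%, -0.14). Next came Mtor (54.2%, -0.18), Mlst8 (54.3%, 0.00) and Tsc2 (54.8%, -0.05). The part of base composition in these changes was not tested. The median GC content of the genes tested was 50.4%.

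Ratios of counts between members within a library do not depend on how libraries were scaled. Of the 45 pairs, 11 (24.4%) had ratios that did not overlap between the groups, where 12.2% of all pairs of tested genes did. Pairs share members, and Rictor was in 6 of the 11, so they are not independent of each other. Rptor over Rictor, the scaffold of complex 1 over that of complex 2, was 0.532, 0.497, 0.425 and 0.542 in AM6545 replicates B, D, E and F, and 0.847, 0.622 and 0.629 in vehicle replicates B, D and E. All AM6545 ratios were below all vehicle ratios, and vehicle B was the highest. The mean log2 difference, AM6545 minus vehicle, was -0.48 as deposited and -0.27 after the GC and length correction.

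The kinase over the complex 2 scaffold, Mtor over Rictor, was 0.667, 0.588, 0.4934 and 0.581 with AM6545 and 0.792, 0.698 and 0.730 with vehicle, in the same replicate order. The difference was -0.35 on the log2 scale and -0.08 after the correction. Rictor over Tsc1 was 4.78, 4.31, 4.53 and 4.57 with AM6545 and 3.77, 3.47 and 3.88 with vehicle. Its difference was 0.29 as deposited and 0.13 after the correction. The widest span of GC content, 23.0 percentage points, was between Akt1s1 and Rps6kb1, whose ratio was 1.63, 1.55, 1.28 and 1.44 with AM6545 and 2.08, 1.70 and 1.75 with vehicle. That difference of -0.32 became 0.10 after the correction, so its direction turned. Ratios with Mlst8 or Rheb overlapped between the groups in every pair.

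Rictor over Deptor, the complex 2 scaffold over the inhibitor, was 5.19, 2.90, 3.01 and 3.41 in AM6545 replicates B, D, E and F and 2.25, 2.504 and 2.83 in vehicle replicates B, D and E. AM6545 B was far above the rest, and AM6545 D nearly met vehicle E. The log2 difference was 0.49, or 0.48 after the correction, and 0.30 without AM6545 replicate B. Deptor over Rps6kb1 was at -0.46, or -0.37 after the correction. Rptor over Tsc2, whose GC contents are within 1 percentage point of each other, was at -0.26, or -0.21 after the correction and -0.14 without vehicle replicate B. The remaining separated pairs moved further with the correction: Rptor over Rps6kb1 from -0.45 to -0.16, Rictor over Akt1s1 from 0.35 to 0.01 (0.21 uncorrected without vehicle replicate B), Rictor over Tsc2 from 0.22 to 0.07 and Mtor over Tsc2 from -0.13 to -0.02. The GC contents of Mtor and Tsc2 are also within 1 percentage point of each other.

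**Figure D3:**
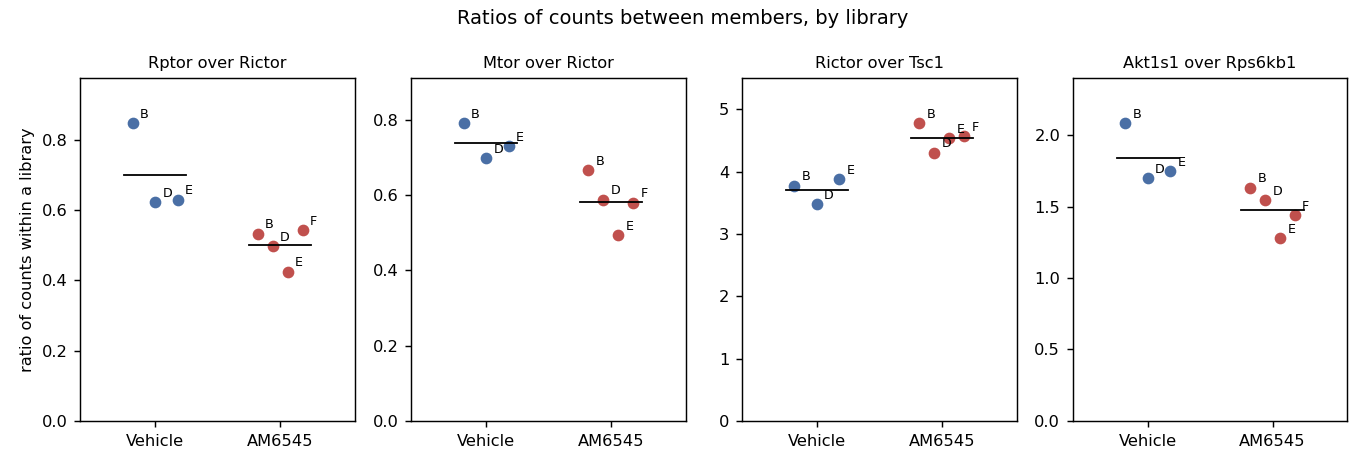
Ratio of counts between a pair of genes within each library (vertical axes, from 0) for 4 of the 11 pairs whose groups did not overlap, with vehicle in blue, AM6545 in red, replicate letters at the points and the mean as a line. Rptor over Rictor lies between 0.425 and 0.542 with AM6545 and between 0.622 and 0.847 with vehicle.

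Transcripts gave a second readout of the same genes. The deposited transcript table held 91 transcripts of the 10 genes, 76 had counts and 38 were tested. None of the 38 had an adjusted p under 0.05 in edgeR, where 0.0177% of all transcripts did, and the smallest adjusted p was 0.509. At an unadjusted p under 0.05 there were 2 of 38, both of Tsc2, where 8.39% of all transcripts were. Of 19 tested transcripts that held at least 10% of their gene's counts, 3 had shares that did not overlap between groups, where 8.63% of all such transcripts did. These are estimated shares, and the uncertainty of dividing reads among similar transcripts is not in the deposited values. The GC and length correction was run on genes only, so all transcript values below are uncorrected.

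Tsc2 showed the widest differences in shares. Tsc2-203 held 12.8%, 22.4%, 16.4% and 23.9% of the gene's counts in AM6545 replicates B, D, E and F, and 51.5%, 33.6% and 32.1% in vehicle replicates B, D and E. All AM6545 libraries were below all vehicle libraries, with means of 18.9% ± 5.18 (SD, n = 4) and 39.1% ± 10.8 (SD, n = 3). The level of Tsc2-203 had a log2 fold change of -1.11 (SE 0.23; 95% interval -1.66 to -0.56), with an edgeR p of 0.00209 unadjusted and 0.509 adjusted. DESeq2 gave an adjusted p of 0.0066, and without vehicle replicate B the log2 fold change was -0.89.

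Tsc2-217 held 52.9%, 49.1%, 55.1% and 48.1% with AM6545 and 29.1%, 37.2% and 44.1% with vehicle, in the same replicate order. Here the AM6545 libraries were all above the vehicle libraries, with means of 51.3% ± 3.29 (SD, n = 4) and 36.8% ± 7.53 (SD, n = 3), and shares of the same gene are tied to each other because they sum to 100%. The level of Tsc2-217 had a log2 fold change of 0.43 (SE 0.18; edgeR unadjusted p = 0.0488, adjusted p = 0.594), which was 0.27 without vehicle replicate B. The next transcript, Tsc2-201, overlapped between groups, with mean shares of 16.7% and 10.1%.

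The Tsc2 transcripts differ by alternative coding exons, shown here from the GENCODE M21 transcripts in the direction of the mRNA with the first and last 3 bases of each exon in capitals.
Tsc2 exon of 69 bases, chr17:24601389-24601457, minus strand: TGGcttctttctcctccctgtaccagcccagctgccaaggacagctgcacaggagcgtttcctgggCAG
Tsc2 exon of 129 bases, chr17:24606224-24606352, minus strand: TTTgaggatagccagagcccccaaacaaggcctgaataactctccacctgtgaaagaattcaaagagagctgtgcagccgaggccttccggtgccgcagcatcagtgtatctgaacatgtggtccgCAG
Both are multiples of 3 bases, so including or skipping them keeps the reading frame. The 69-base exon is in Tsc2-217 and absent from Tsc2-203 and Tsc2-201. Its estimated inclusion among transcripts that span it was 54.3%, 51.3%, 57.3% and 50.7% in AM6545 replicates B, D, E and F, and 33.2%, 39.5% and 47.2% in vehicle replicates B, D and E. The groups did not overlap, with means of 53.4% ± 3.04 (SD, n = 4) and 39.95% ± 7.02 (SD, n = 3). Inclusion was computed from the transcript counts, not from reads over the exon. Only 1 of the 5 spanning transcripts, Tsc2-217, holds this exon, so its inclusion restates the share of Tsc2-217 and is no separate result. The 129-base exon, absent from Tsc2-201, had overlapping inclusion of 73.0% ± 3.76 (SD, n = 4) and 82.6% ± 8.44 (SD, n = 3).

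Tsc2-203 and Tsc2-217 also differ at their ends. The last exon of Tsc2-203 is 951 bases long, and 693 of them are shared with Pkd1 on the opposite strand, while the 246-base last exon of Tsc2-217 shares 0 bases with it. Tsc2-201 also ends over Pkd1, with 572 of 830 bases shared, and its mean share was higher with AM6545 (16.7% against 10.1%, with overlap). Without strand, reads of these ends and of Pkd1 cannot be told apart. Pkd1 itself, the polycystin-1 gene, had 24.8, 30.2, 26.25 and 28.4 CPM with AM6545 and 33.1, 29.6 and 28.4 CPM with vehicle, which overlapped, with a log2 fold change of -0.15 (SE 0.11; edgeR unadjusted p = 0.195).

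Rptor's counts were mostly assigned to a transcript that the annotation marks as a target of nonsense-mediated decay. This transcript, Rptor-211, held 71.0%, 58.7%, 50.35% and 76.0% of the gene's counts in AM6545 replicates B, D, E and F, and 84.8%, 78.5% and 71.2% in vehicle replicates B, D and E. The coding Rptor-201 held 26.9%, 39.5%, 47.8% and 21.98% with AM6545 and 14.4%, 20.3% and 27.9% with vehicle. For both transcripts the groups overlapped. The level of Rptor-211 had a log2 fold change of -0.58 (SE 0.25; edgeR unadjusted p = 0.0553). The models differ by a 76-base exon, which is not a multiple of 3 and is shown in the same way.
Rptor exon of 76 bases, chr11:119811945-119812020, plus strand: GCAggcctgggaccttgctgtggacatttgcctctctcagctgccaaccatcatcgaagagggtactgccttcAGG
Rptor-211 lacks it and has 1161 coding bases, where Rptor-201 has 4005. The models also differ in the length of their first exon, 274 against 823 bases, and of their last exon, 2163 against 1994 bases. The division of reads between them therefore does not rest on the skipped exon alone. Estimated inclusion of the 76-base exon was 35.9% ± 11.7 (SD, n = 4) with AM6545 and 21.7% ± 6.90 (SD, n = 3) with vehicle, with overlap. These values too were computed from the transcript counts.

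**Figure D4:**
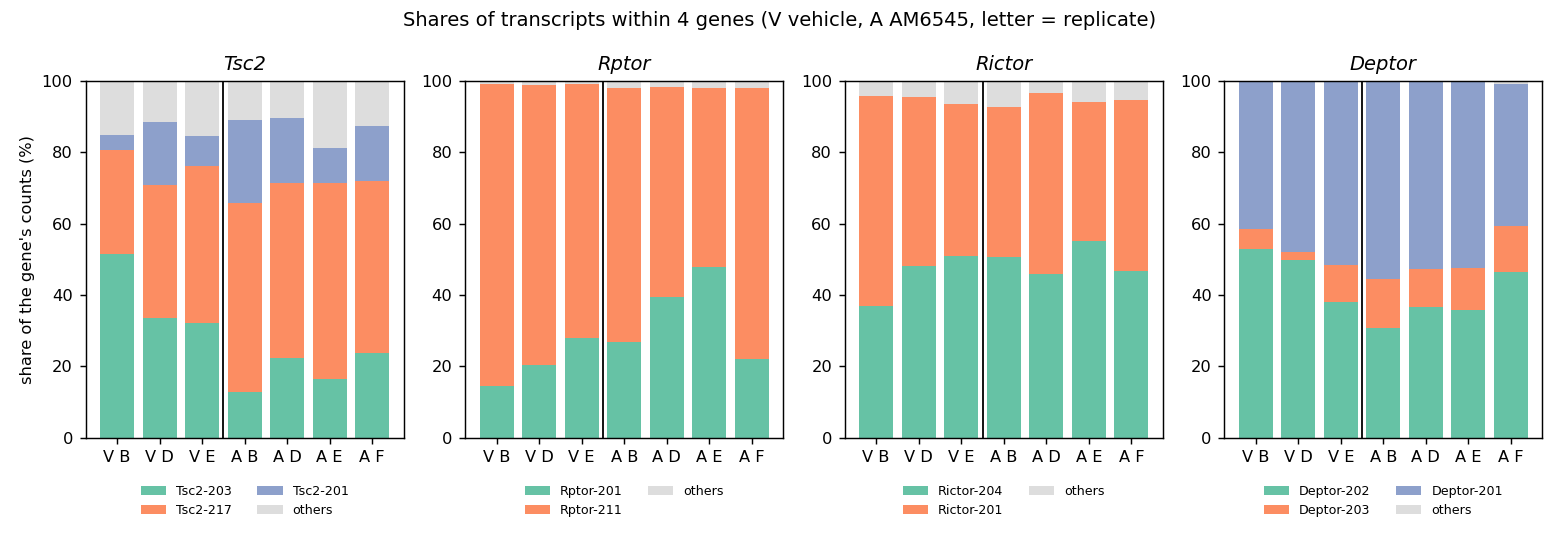
Share of each gene's estimated counts (vertical axis, percent) held by its main transcripts in the 3 vehicle (V) and 4 AM6545 (A) libraries, for Tsc2, Rptor, Rictor and Deptor. Tsc2-203 takes 32.1% to 51.5% of Tsc2 counts in vehicle and 12.8% to 23.9% in AM6545 libraries.

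Deptor was divided among 3 transcripts. The shortest, Deptor-203, held 13.8%, 10.85%, 11.55% and 13% with AM6545 and 5.58%, 2.29% and 10.6% with vehicle, in replicate order. The shares of the groups did not overlap but AM6545 D and vehicle E nearly met. Deptor-203 had only 12.2 to 56.3 counts per library, and its CPM overlapped between the groups. The level of Deptor-203 had a log2 fold change of 0.73 (SE 0.46; edgeR unadjusted p = 0.156). It was 0.36 without vehicle replicate D and 1.24 without vehicle replicate E. Deptor-201 held 50.1% ± 7.08 (SD, n = 4) and 46.96% ± 5.08 (SD, n = 3), with overlap. Deptor-202, the longest, held 37.4% ± 6.54 (SD, n = 4) and 46.9% ± 7.94 (SD, n = 3), and its level had a log2 fold change of -0.62 (SE 0.30; edgeR unadjusted p = 0.0817).

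Rictor was split between a retained-intron transcript, Rictor-204, and the coding Rictor-201. Rictor-204 held 49.6% ± 4.22 (SD, n = 4) with AM6545 and 45.2% ± 7.44 (SD, n = 3) with vehicle, and the groups overlapped for both. Other members rested largely on a single transcript. Mtor-202 held 97.2% and 97.3% of Mtor counts on average in AM6545 and vehicle libraries, Rheb-201 held 95.8% and 97.8% of Rheb counts, and Rps6kb1-207 held 91.4% and 92.0% of Rps6kb1 counts. Akt1s1-201 held 83.7% and 81.5%. For Mlst8 and Tsc1 the division among near-identical transcripts swung between libraries of the same group: Tsc1-204 held 63.3% in AM6545 D and 0% in AM6545 E, and Mlst8-210 held 78.7% in AM6545 B and 25.2% in AM6545 F. Tsc1-202 ranged over libraries from 24.8% to 61.2%, Tsc1-201 from 0% to 39.6%, Mlst8-202 from 0% to 36.4% and Mlst8-201 from 0% to 21%.

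The rest of the pathway was followed through 6 lists with 83 genes, all of which were tested. No gene of these lists had an adjusted p under 0.05, and the smallest edgeR adjusted p was 0.199. At an unadjusted p under 0.05 there were 7 higher and 9 lower genes, 19.3% of the 83 against 14.6% of all genes. The groups did not overlap for 8 higher and 9 lower genes, 20.5% against 13.8%. Log2 fold changes were above 0 for 45 genes and below 0 for 38, with a median of 0.03.

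**Figure D5:**
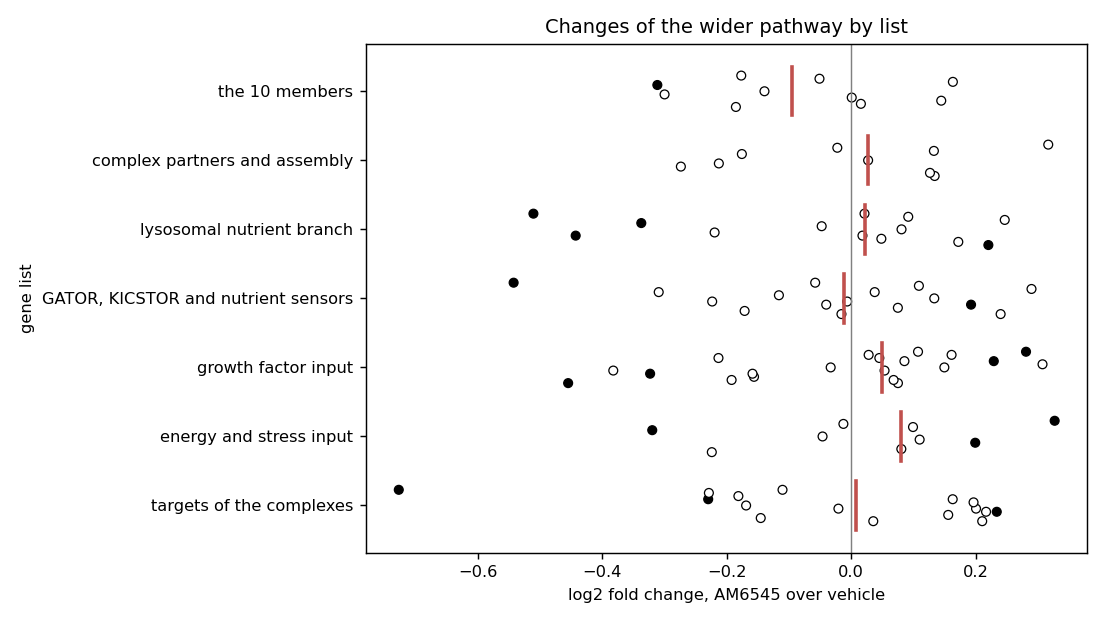
Log2 fold change, AM6545 over vehicle (horizontal axis), of each tested gene of the 10 members and of the 6 pathway lists (rows), with filled points for an edgeR unadjusted p under 0.05 and a red bar at each median. The lowest point is Eif4ebp2 at -0.73, and the list medians lie between -0.09 and 0.08.

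Among the 16 targets of the complexes, 1 was higher and 2 were lower at an unadjusted p under 0.05. Eif4ebp2 encodes a 4E-binding protein, the translational repressor of this family that is most abundant in brain. It had 15.4, 17.0, 16.1 and 17.2 CPM in AM6545 replicates B, D, E and F, and 37.0, 25.5 and 18.8 CPM in vehicle replicates B, D and E. The AM6545 libraries were close together and all below the vehicle libraries, which were spread, with vehicle B the highest. Its log2 fold change was -0.73 (SE 0.18; edgeR unadjusted p = 0.00188, adjusted p = 0.199). After the GC and length correction it was -0.68 (edgeR unadjusted p = 0.00345, adjusted p = 0.729). Without vehicle replicate B it was -0.43 (edgeR adjusted p = 0.644), and with the replicate letter as a block it was -0.70 (edgeR adjusted p = 0.595). Without vehicle replicate E it was -0.93 with an edgeR adjusted p of 0.0148. DESeq2 gave an adjusted p of 0.0260 and limma-voom with quality weights 0.0305.

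Eif4e, the cap-binding protein that 4E-binding proteins hold, had 233 ± 8.84 CPM (SD, n = 4) with AM6545 and 198 ± 8.75 (SD, n = 3) with vehicle, without overlap. Its log2 fold change was 0.23 (SE 0.09; edgeR unadjusted p = 0.0212, adjusted p = 0.272) and 0.02 after the GC and length correction.

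On the lysosome, Rag GTPases are anchored by the Ragulator complex and bring complex 1 to Rheb. Of 13 genes of this branch, 1 was higher and 3 were lower at an unadjusted p under 0.05. The Ragulator subunit Lamtor4 had 31.4 ± 2.35 (SD, n = 4) and 44.7 ± 8.40 CPM (SD, n = 3), a log2 fold change of -0.51 (SE 0.13; edgeR adjusted p = 0.199). Lamtor2, another subunit, had 46.2 ± 1.76 (SD, n = 4) and 62.8 ± 11.2 CPM (SD, n = 3), a log2 fold change of -0.44 (SE 0.12; edgeR adjusted p = 0.199). The groups did not overlap for either gene. After the GC and length correction Lamtor4 was at -0.18 and Lamtor2 at 0.01. Without vehicle replicate B they were at -0.34 and -0.29 (edgeR adjusted p = 0.622 and 0.644), and without vehicle replicate E their edgeR adjusted p-values were 0.0303 and 0.0246. DESeq2 gave adjusted p-values of 0.0330 and 0.0487, and limma-voom with quality weights gave 0.0519 and 0.03745.

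Upstream of the Rags are the GATOR and KICSTOR complexes and amino acid sensors. Of these 16 genes, 1 was higher and 1 lower at an unadjusted p under 0.05, where 14.6% of all genes were. Seh1l, a subunit of GATOR2 and of the nuclear pore, had 68.7 ± 1.97 (SD, n = 4) and 60.1 ± 0.365 CPM (SD, n = 3), a log2 fold change of 0.19 (SE 0.09; edgeR adjusted p = 0.338) that was -0.02 after the correction.

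Growth factor input held 2 higher and 2 lower genes among 20 at an unadjusted p under 0.05. Pik3cb, a catalytic subunit of PI3-kinase, had 25.4 ± 1.42 (SD, n = 4) and 20.9 ± 2.85 CPM (SD, n = 3), a log2 fold change of 0.28 (SE 0.12; edgeR adjusted p = 0.306). The insulin receptor gene Insr had a log2 fold change of -0.32 (SE 0.14; edgeR adjusted p = 0.320), and its groups overlapped. Without vehicle replicate B, Pik3cb was at 0.18 and Insr at -0.19. After the GC and length correction Pik3cb was at 0.21 and Insr at -0.25. Energy and stress input held 2 higher genes and 1 lower among 9 at the same threshold. Prkaa1 and Prkag2, a catalytic and a regulatory subunit of AMP-activated kinase, had log2 fold changes of 0.33 (SE 0.12; edgeR adjusted p = 0.261) and 0.20 (SE 0.09; edgeR adjusted p = 0.320), both without overlap. After the correction they were at 0.14 and 0.08.

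The 9 complex partners and assembly factors had 0 genes at an unadjusted p under 0.05. Their smallest p-values belonged to Tti1, part of the chaperone that assembles mTOR, with a log2 fold change of 0.32 (SE 0.15; edgeR unadjusted p = 0.0589), and Prr5, a subunit of complex 2, with -0.27 (SE 0.15; edgeR unadjusted p = 0.0883). The groups overlapped for both. Without AM6545 replicate B they were at 0.20 and -0.18, and without vehicle replicate B Tti1 was at 0.20. After the GC and length correction Tti1 was at 0.23 and Prr5 at -0.09.

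Across the 7 libraries, which share the treatment groups and the GC trend, the genes whose log2 CPM followed Mtor most closely among 9626 genes were Unc13a (Pearson's r = 0.976), Herc2 (r = 0.974), Prpf8 (r = 0.972), Pycrl (r = 0.969) and Hist1h2bc (r = 0.968). Among pairs of members, Mtor and Tsc2 had r = 0.88 and Rptor and Akt1s1 r = 0.86, while Rictor and Akt1s1 had r = -0.91 and Mtor and Rps6kb1 r = -0.87. These are descriptions over 7 points.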

How the data were processed

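The authors deposited estimated counts per gene and per transcript, not scaled to a common total; 83.5% of gene values above 0 are not whole. Salmon 1.5.2 and build mm10 are named in the submitters' processing notes; the annotation release and the use of strand are not given in the sources used here. Names, lengths, GC content, coordinates and sequences came from GENCODE M21 (GRCm38), which held 22194 of 22248 gene and 101575 of 102392 transcript identifiers; most deposited identifiers carry a higher version, so models may differ.

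Counts were rounded, filtered with filterByExpr, scaled by TMM and compared two-sided by the robust quasi-likelihood fit of edgeR 4.0.16 with no covariates (limma 3.58.1 under R 4.3.3) over all 14654 genes or 33962 transcripts, with Benjamini-Hochberg adjustment. CPM uses TMM sizes. SE is the absolute log2 fold change over the square root of F. The median biological coefficient of variation was 12.4%. TPM divides transcript counts by full reference length. The correction removes each library's lowess trend (span 0.3) with GC content and length. The alternatives were other scalings, filters and tests (DESeq2 1.42.0, limma-voom with library quality weights), the replicate letter as a block, no mitochondrially encoded genes and leaving out each library. The code was tested on simulated data.

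The members and lists were chosen with earlier results of these data known. Text names all members, the 2 genes of smallest p per pathway list, transcripts with at least 10% of their gene and the 5 genes most like Mtor. Another gene that the rule named entered the counts and is not reported here. Pkd1 and Bricd5 were named for their overlaps. Counts per library ran from 247 to 6547 for the members; intervals cover the spread between libraries.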

Additional observations from a re-analysis of the deposited data

How the results depend on the processing

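No member gene was called under any setting run, and Rptor, Rictor, Deptor and Tsc1 kept their direction in all 20 alternatives each. With limma-voom with quality weights, 4 of the 10 members (Mtor, Rptor, Deptor and Tsc1) had an unadjusted p under 0.05, where 3508 of 14654 genes did. The GC and length correction alone moved log2 fold changes past 0 for Mtor (0.006013), Akt1s1 (0.08408), Tsc2 (0.02475), Rps6kb1 (-0.01645), Mlst8 (-0.02884), Rheb (-0.03431), Lamtor2 (0.01355) and Seh1l (-0.01999), and the log2 ratio of Akt1s1 over Rps6kb1 (0.1005). With the replicate block added it gave 0.009858 for Mtor, 0.09033 for Akt1s1, 0.00365 for Tsc2, -0.06001 for Rps6kb1, -0.003392 for Mlst8, -0.07357 for Rheb, 0.01597 for Lamtor2, -0.03636 for Seh1l and -0.006103 for Eif4e. Mlst8, near 0, also crossed it with DESeq2 size factors (-0.001153), upper-quartile scaling (-0.003325), DESeq2 (-0.0006746), a mean of at least 50 counts (-0.008137) and no mitochondrially encoded genes (-0.001915), and ran from -0.05479 to 0.06576 when each library was left out. Rheb crossed 0 with limma-voom with quality weights (-0.003696) and the replicate block (-0.03097), and ran from -0.0562 to 0.05965 without each library. Over all genes, the 1 call became 205 with DESeq2, 394 with limma-voom with quality weights, 2 with a mean of at least 50 counts, 2 without robust estimation, 4 at an adjusted p under 0.1, 0 after the GC and length correction (987 at an unadjusted p under 0.05 in edgeR), and 0 (without AM6545 replicate E or vehicle replicate B) to 944 (without vehicle replicate E) when a library was left out. Over all transcripts, the 6 calls became 431 with DESeq2, 0 with limma-voom with quality weights (3946 unadjusted), 27 with no filter, 10 with a mean of at least 50 counts and 1 to 14 when a library was left out, the most without vehicle replicate E. DESeq2 called 1 member transcript, Tsc2-203. The cause of these differences between tests was not tested. Deviations of same-letter libraries from their group means correlated at -0.338 (B), -0.144 (D) and -0.267 (E), and no library correlated best with its own letter. Such deviations sum to 0 within a group of few libraries, and the labels do not say what the letters mark. These values therefore cannot decide whether the letters pair the libraries. The replicate block gave 1 gene, higher with AM6545, where the 1 call of the main fit was lower, so they are not the same result. It gave 0 transcripts (1597 unadjusted in edgeR). With the length of the longest transcript, mean TPM was 131.1 for Rheb, 75.93 for Akt1s1, 23.32 for Tsc2, 13.63 for Rictor, 10.98 for Rptor and 4.901 for Deptor, because the divisor changes. Few libraries limit the precision: the 95% intervals of the members' log2 fold changes were 0.42 to 0.68 wide.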
